A study of Mus musculus with 80 samples.

Results

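This comparison sets the livers of 5 Adamts12-/- mice taken 24 h after carbon tetrachloride (CCl4) against those of 5 wild-type mice given the same injection and taken at the same time, 10 of the 80 livers of the study, chosen by the genotype, treatment and time in their titles. The study profiled polyadenylated liver RNA by sequencing in 16 groups of 5 mice, set by genotype, CCl4 or vehicle, and 4 h, 12 h, 24 h or 7 days, to follow the response of Adamts12-/- and wild-type mice to acute liver injury. All mice were labelled C57BL/6J and were 8-week-old females. The Adamts12-/- CCl4 and the wild-type CCl4 groups received CCl4 once, intraperitoneally, at 0.3 ml per kg of body weight as a 3% solution in olive oil. The Adamts12-/- vehicle and the wild-type vehicle groups of 24 h, 5 livers each, received olive oil and give the genotype difference without the toxin. The Adamts12-/- mice came from a line made in an earlier study, and the labels name no promoter or cell type that limits the deletion. Whether the wild-type mice were littermates is not given in the sources used here. Each library came from a different numbered mouse.

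ADAMTS12 is a secreted metalloproteinase with thrombospondin motifs that acts in the extracellular matrix and is made mainly by mesenchymal cells. CCl4 is turned into a radical by cytochrome P450 in the hepatocytes around the central vein, which die, after which immune cells enter and surviving hepatocytes divide. Surviving hepatocytes also oxidize fatty acids under the control of PPARα, a nuclear receptor that is activated by fatty acids and induces the enzymes of peroxisomal and mitochondrial fatty acid oxidation.

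Values are normalized read counts per gene. Unless stated otherwise, a difference is the mean log2(value + 1) of the Adamts12-/- livers minus that of the wild-type livers ± SE, fitted with limma over all 14289 genes tested, and an adjusted p under 0.05 by the Benjamini-Hochberg method was required for a call. Recovered depth was 23.1 to 40.2 M reads in the Adamts12-/- CCl4 libraries and 19.9 to 43.8 M reads in the wild-type CCl4 libraries. A value of 0 allows up to 3 reads, or 2.05 to 3.61 normalized counts in an Adamts12-/- CCl4 liver and 1.98 to 4.12 in a wild-type one, counting error only. Hepatocyte identity genes (19 of 20 tested) summed to 1567100 to 3012600 normalized counts in Adamts12-/- CCl4 livers and 1684600 to 2629400 in wild-type CCl4 livers, so the tissue label was met in both groups.

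3 of the 10 livers stood apart from the rest of their groups on the first 2 principal components. The first principal component of the 20 livers of 24 h (53.8% of the variance) ran from vehicle livers, at -64.0 to -38.4, to CCl4 livers. Adamts12-/- CCl4 replicates 2 and 4 lay at -9.0 and 5.6, between the vehicle livers and the other 3 livers of their group, at 63.1 to 99.0. Both still had low pericentral hepatocyte markers, the genes of the zone that CCl4 damages: the mean log2 level of these 20 genes relative to wild-type vehicle livers was -1.73 and -1.87 in them, within the range of -2.25 to -1.37 of the Adamts12-/- CCl4 group and below all 5 Adamts12-/- vehicle livers. Wild-type CCl4 replicate 4 lay at 24.4 on the first component, against 62.2 to 91.5 in the rest of its group, and at 97.2 on the second, against -28.5 to -2.5. On the third component (7.42% of the variance) Adamts12-/- CCl4 replicate 5 lay at -57.8, against 10.2 to 46.7 in the rest of its group. Leaving it out gave 1829 genes (12.8%) at an unadjusted p under 0.05, the highest count of the fits without 1 liver. Where lists or genes moved most with the 3 livers named first, values without them stand beside those with all livers. List values without replicate 5 enter only the ranges given over alternatives.

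**Figure D1:**
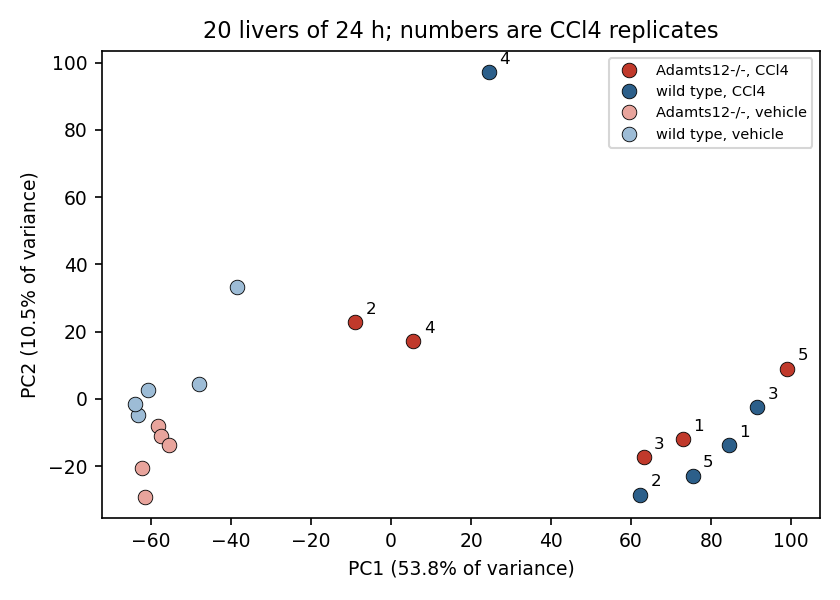
The 20 livers of 24 h on the first 2 principal components of log2(value + 1), each point 1 liver, with the replicate number beside the CCl4 livers. Adamts12-/- CCl4 replicates 2 and 4 lie between the vehicle livers and the other CCl4 livers, and wild-type CCl4 replicate 4 stands alone at the top.

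Adamts12 itself was lower in the knockout. It had 14.4, 12.0, 8.18, 13.9 and 8.84 normalized counts in the 5 Adamts12-/- CCl4 livers, against 64.9, 29.8, 75.6, 70.0 and 50.3 in the 5 wild-type CCl4 livers. The groups did not overlap. The difference was -2.21 ± 0.42 (two-sided exact permutation p = 0.00794 with 5 livers in each group, the smallest that 252 splits allow), while its adjusted p over all genes was 0.209. Vehicle livers had lower levels of the gene in both genotypes, at 1.27 to 10.3 in Adamts12-/- and 9.80 to 24.3 in wild type, with a difference of -1.68 ± 0.42. The gene lies at chr15:11064790-11349231 of GRCm38, and the counts are over the whole gene, so that reads from exons outside a deleted part are included.

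**Figure D2:**
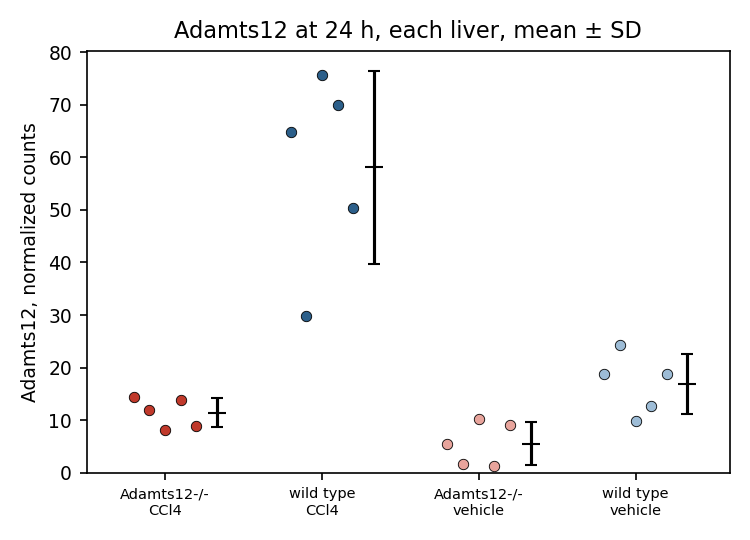
Normalized counts of Adamts12 in each of the 20 livers of 24 h (points, 5 a group) with the group mean and SD (bar). The Adamts12-/- CCl4 livers lie at 8.18 to 14.4 and the wild-type CCl4 livers at 29.8 to 75.6.

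Across all genes the genotypes were hard to tell apart at this time. With limma, 0 of 14289 genes were called between Adamts12-/- and wild-type livers 24 h after CCl4, a background of 0%. At an unadjusted p under 0.05 there were 459 genes (3.21% of those tested), 205 of them higher (1.43%) and 254 lower (1.78%) in Adamts12-/- livers, and limma voom on recovered reads gave 450 and called 0. The 5 and 5 values did not overlap for 34 genes (0.238%), 15 of them higher (0.105%) and 19 lower (0.133%) in Adamts12-/- livers. The median SE of a difference was 0.23, and the median SD within a group was 0.43 in Adamts12-/- CCl4 and 0.39 in wild-type CCl4 livers, against 0.24 in Adamts12-/- vehicle and 0.20 in wild-type vehicle livers. Single livers moved the count at an unadjusted p under 0.05 by over 1.5 times: it was 1829 without Adamts12-/- replicate 5, 928 without replicate 1, 777 without replicate 3, 216 without replicate 2, 205 without replicate 4, and 1338 without wild-type replicate 4. In vehicle livers of 24 h, where 4 of the 5 wild-type mice had numbers below 7000, 0 genes were called. An unadjusted p under 0.05 was found for 995 (6.96%), 307 of them higher and 688 lower in Adamts12-/- livers. The test of whether the genotype difference itself differed between CCl4 and vehicle called 0 genes as well, with 357 (2.50%) at an unadjusted p under 0.05. Everything below on single genes therefore gives values that did not pass the adjusted threshold, with unadjusted p-values as a description.

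Genes of fatty acid oxidation stood higher in Adamts12-/- livers. Of the 22 genes in the list of PPARα targets and fatty acid oxidation enzymes, all tested, 0 were called. At an unadjusted p under 0.05, 6 were higher and 0 lower, beside 1.43% higher over all genes, and 20 of the 22 had a difference above 0. The median difference of the list was 0.30, beside -0.02 over all genes tested, and 0.03 for the same list in vehicle livers. The mean log2 level of the list relative to wild-type vehicle livers was -0.31, -0.22, -0.32, -0.39 and -0.15 in the Adamts12-/- CCl4 livers, against -0.70, -0.66, -0.65, -0.73 and -0.52 in the wild-type CCl4 livers. The groups did not overlap, and both lay below the mean of the vehicle livers. Single vehicle livers ranged from -0.36 to 0.35 in Adamts12-/- and from -0.32 to 0.16 in wild type. The Adamts12-/- CCl4 livers overlapped both ranges. This list is 1 of 39, which were chosen with earlier results of these data known. Without Adamts12-/- replicates 2 and 4, 5 members were higher and the median was 0.24, and without those and wild-type replicate 4, 4 were higher and the median was 0.26. Over 24 alternatives the median lay between 0.24 and 0.36, with 4 to 10 members higher, 0 lower and 18 to 21 of the members above 0.

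Ehhadh, the bifunctional enzyme of peroxisomal fatty acid oxidation, had the second smallest p of all genes. It had 6590, 11296, 8310, 9805 and 7236 normalized counts in the Adamts12-/- CCl4 livers, against 3048, 4455, 5366, 3553 and 5412 in the wild-type CCl4 livers. Every Adamts12-/- liver was above every wild-type liver, and the difference was 0.99 ± 0.19 (adjusted p = 0.209). In vehicle livers the means were 5531 in Adamts12-/- and 5472 in wild type, a difference of 0.01 ± 0.19, and the change in the difference between CCl4 and vehicle had an unadjusted p of 0.00133 and an adjusted p of 1. Across the alternatives the CCl4 difference ranged from 0.72 to 1.08.

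The liver fatty acid binding protein gene Fabp1 had 33631 to 71893 normalized counts in Adamts12-/- CCl4 livers and 23687 to 39759 in wild-type CCl4 livers, with overlap (difference 0.74 ± 0.21, unadjusted p = 0.00248). Acot1, a cytosolic acyl-CoA thioesterase, had 433 to 1327 in Adamts12-/- and 125 to 678 in wild-type livers (1.46 ± 0.47, unadjusted p = 0.00542). Acadl, the long-chain acyl-CoA dehydrogenase of mitochondria, had 6373 to 8470 in Adamts12-/- and 5153 to 6265 in wild-type livers and did not overlap (0.33 ± 0.11, unadjusted p = 0.00602). Slc25a20, the carnitine-acylcarnitine carrier, and Hadha, a subunit of the mitochondrial trifunctional protein, completed the 6 and differed by 0.23 ± 0.10 and 0.34 ± 0.16. Ppara itself differed by 0.32 ± 0.34, not at an unadjusted p under 0.05. The 2 members below 0 were Cd36, a fatty acid transporter (-0.11 ± 0.32), and Pdk4, an inhibitor of pyruvate oxidation (-0.19 ± 0.79), whose values in Adamts12-/- CCl4 livers included 7051 in replicate 5 against 294 to 764 in the other 4. Ppara, Cd36 and Pdk4 had no stable direction: without Adamts12-/- replicates 2 and 4 the difference was -0.14 for Ppara and 0.65 for Pdk4, and without wild-type replicate 4 it was 0.19 for Cd36.

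Other known targets of PPARα, outside that list, were the fatty acid ω-hydroxylases Cyp4a14 and Cyp4a10. Cyp4a14 had 16897, 16931, 16969, 15807 and 17715 normalized counts in Adamts12-/- CCl4 livers, against 8380, 13985, 6833, 5050 and 14782 in wild-type CCl4 livers. Cyp4a10 had 7632 to 11081 in Adamts12-/- livers and 2536 to 7629 in wild-type livers. Neither overlapped, but for Cyp4a10 the lowest Adamts12-/- liver lay only just above the highest wild-type liver. The differences were 0.90 ± 0.28 and 0.86 ± 0.27 (unadjusted p = 0.00405 and 0.00443, adjusted p = 0.977 for both). In vehicle livers they were 0.02 ± 0.28 and -0.16 ± 0.27. Retsat, which encodes retinol saturase, had 9530, 6918, 6555, 7002 and 6367 in Adamts12-/- livers and 4142, 4011, 3258, 3431 and 5265 in wild-type livers, also without overlap (0.86 ± 0.19, adjusted p = 0.364). Reads of close paralogs (Cyp4a, Acot, Gstm, Mup and C4 genes) may be shared between copies, so that their single-gene values are uncertain.

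**Figure D3:**
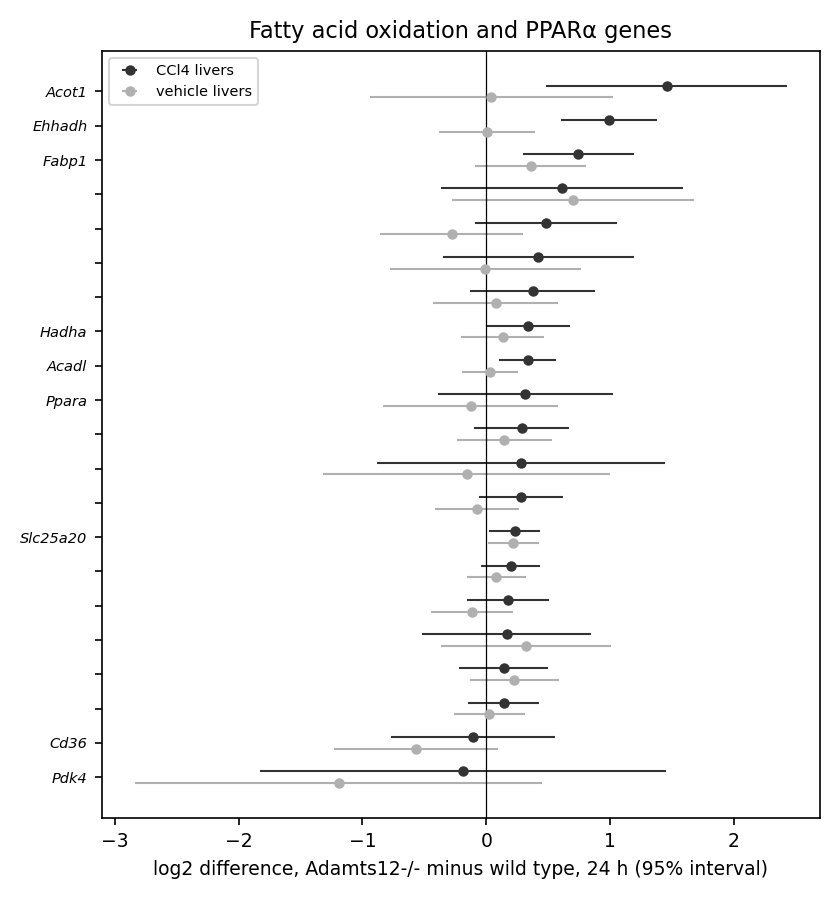
Difference of the mean log2(value + 1), Adamts12-/- minus wild type, for 21 of the 22 genes of the fatty acid oxidation list in CCl4 livers (black) and in vehicle livers (grey) of 24 h, with 95% intervals, 5 livers a group. The 9 genes named in the text are labelled, and in CCl4 livers 19 of the 21 points lie right of 0.

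PPARα binds as a heterodimer to a direct repeat of hexamers spaced by a single base. The promoters of the members whose differences were just given, 250 bases before to 50 after the gene start, are shown for Fabp1 and Ehhadh because these had the smallest p-values in the list. Sequences are from RefSeq on GRCm38.p6, with Fabp1 at chr6:71199629-71199928 on the plus strand and Ehhadh at chr16:21787785-21788084 on the minus strand, and capitals mark a match to the repeat.

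Fabp1: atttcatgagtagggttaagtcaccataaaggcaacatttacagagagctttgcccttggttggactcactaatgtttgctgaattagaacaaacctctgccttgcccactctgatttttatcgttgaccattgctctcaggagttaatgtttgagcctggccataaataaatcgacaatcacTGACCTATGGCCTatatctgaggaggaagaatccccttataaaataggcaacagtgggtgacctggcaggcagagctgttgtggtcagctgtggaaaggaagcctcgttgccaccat

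Ehhadh: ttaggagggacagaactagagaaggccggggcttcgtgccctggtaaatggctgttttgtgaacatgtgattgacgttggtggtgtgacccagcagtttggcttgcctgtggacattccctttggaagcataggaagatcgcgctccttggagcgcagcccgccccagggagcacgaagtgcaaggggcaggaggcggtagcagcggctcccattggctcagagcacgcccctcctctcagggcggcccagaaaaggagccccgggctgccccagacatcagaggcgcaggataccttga

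The repeat was searched as the hexamer AGGNCA, any base, and AGGNCA again, on both strands, 1 of 8 spellings tried, and this one was chosen for display after its matches were seen. It matched in 122 of 27025 genes with a promoter in the table (0.451%) and, of the 17 list members with one, in Fabp1 alone, where it starts 67 bases before the gene start. Fabp1 also matched 2 looser spellings, which matched 3.30% and 3.37% of all genes, and the other 5 spellings matched 0 of the 17 members. A match is a description of letters, and the absence of one in Ehhadh says only that these letters are not in this window.

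Of the genes with the smallest p-values outside lipid metabolism, Gm28438, annotated as an unprocessed pseudogene at chr1:24612775-24613119, came first. It had 40.2, 96.1, 119, 51.2 and 109 normalized counts in Adamts12-/- CCl4 livers, against 8.94, 3.05, 0, 2.75 and 3.97 in wild-type CCl4 livers, and did not overlap (4.36 ± 0.79, adjusted p = 0.209). Reads of a pseudogene may come from near-identical copies. Cntnap1, an axonal contactin-associated protein, had 77.7 to 276 in Adamts12-/- livers and 39.7 to 68.7 in wild-type livers (1.37 ± 0.28, adjusted p = 0.312). C4a, a complement C4 gene, had 75.6 to 94.9 in Adamts12-/- and 28.8 to 58.0 in wild-type livers (0.87 ± 0.19), and the zinc finger gene Zfp429 had 26.4 to 62.7 in Adamts12-/- and 75.6 to 107 in wild-type livers (-1.15 ± 0.25, adjusted p = 0.364 for both). Neither pair of ranges overlapped. In vehicle livers of 24 h the differences were 2.63 ± 0.79 for Gm28438 and -0.81 ± 0.25 for Zfp429, and -0.05 ± 0.28 for Cntnap1 and -0.10 ± 0.19 for C4a.

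The rest of the 15 genes with the smallest p had adjusted p-values from 0.482 to 0.977. Nox4, an NADPH oxidase that makes hydrogen peroxide, had 35.4 to 114 normalized counts in Adamts12-/- CCl4 livers and 4.26 to 47.3 in wild-type CCl4 livers (2.14 ± 0.51). The cholesterol hydroxylase gene Cyp46a1 had 14.3 to 26.4 in Adamts12-/- and 5.49 to 12.3 in wild-type livers without overlap (1.22 ± 0.31), and the processed pseudogene Gm13835 had 30.9 to 64.8 in Adamts12-/- and 6.71 to 20.6 in wild-type livers, also without overlap (1.45 ± 0.38). Eif4ebp3, a translation repressor gene, had 7.21 to 17.1 in Adamts12-/- and 1.37 to 7.45 in wild-type livers (1.53 ± 0.38). Eps8l1, a regulator of actin, had 0 to 14.5 in Adamts12-/- livers and 12.8 to 29.1 in 4 wild-type livers, with 395 in wild-type replicate 4 (-3.74 ± 0.85, and -2.89 without that liver). Cpsf4l had 0.804 to 31.2 in Adamts12-/- livers and 0 to 2.75 in wild-type livers, under the level that 3 reads give, and the orphan transporter gene Slc6a16 had 0 to 14.4 in Adamts12-/- livers and was at 0 in all 5 wild-type livers, for which no fold is given.

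**Figure D4:**
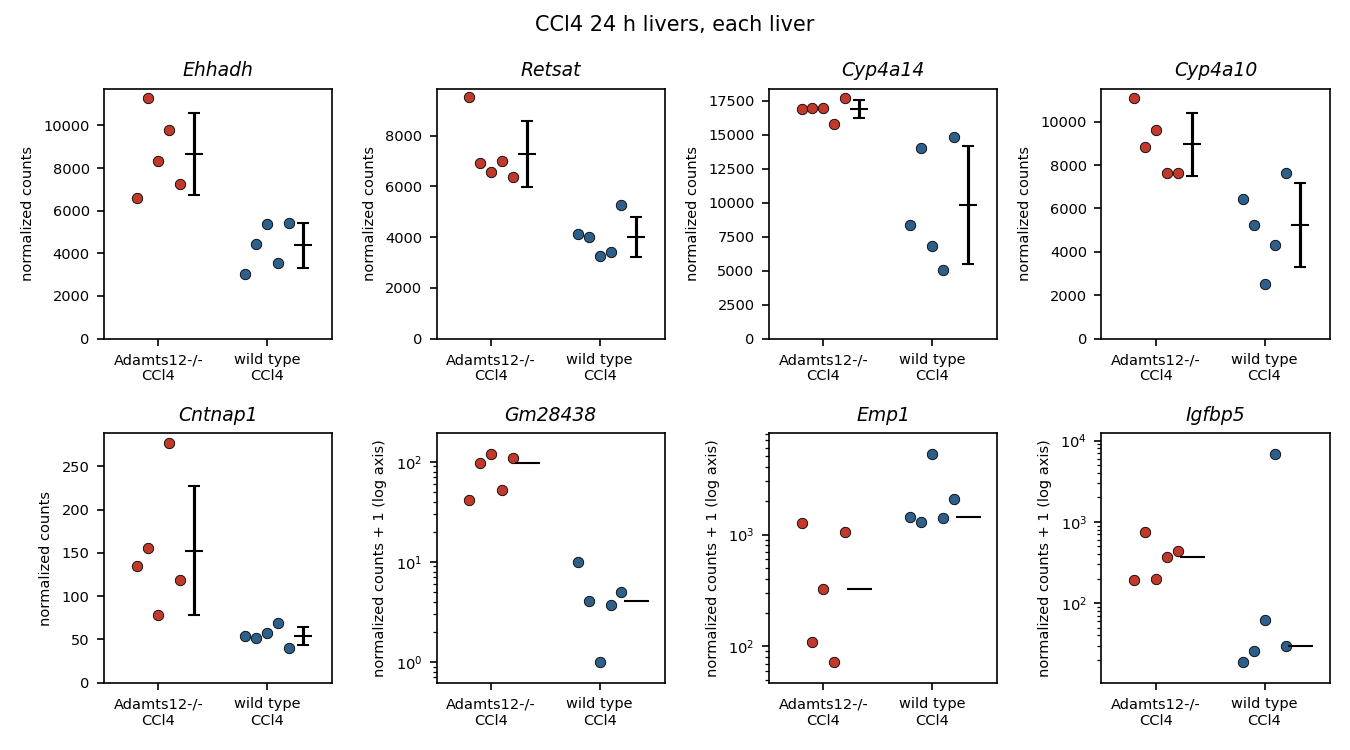
Normalized counts of 8 genes in each Adamts12-/- and wild-type CCl4 liver of 24 h (points, 5 a group), with mean and SD on linear axes in the first 5 panels and the median on a log axis of value + 1 in the last 3. Ehhadh, Retsat, Cyp4a14, Cyp4a10, Cntnap1 and Gm28438 are higher in every Adamts12-/- liver, Emp1 is lower in every one, and Igfbp5 is high in a single wild-type liver.

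A few further genes without overlap were chosen after their values were seen. Emp1, an epithelial membrane protein gene, had 1282, 109, 327, 71.5 and 1044 normalized counts in Adamts12-/- CCl4 livers, against 1430, 1294, 5256, 1399 and 2063 in wild-type CCl4 livers (-2.59 ± 0.81, unadjusted p = 0.00465). The 2 lowest values were those of Adamts12-/- replicates 2 and 4, and without them the Emp1 difference was -1.36 (unadjusted p = 0.102). Ptpro, a receptor tyrosine phosphatase gene, had 15.7 to 24.5 in Adamts12-/- and 41.0 to 97.5 in wild-type livers, Napsa, an aspartic protease gene, 34.1 to 76.4 in Adamts12-/- and 87.3 to 255 in wild-type livers, and Rasa4, a Ras GTPase-activating protein gene, 58.0 to 77.6 in Adamts12-/- and 78.0 to 172 in wild-type livers. These 3 had differences of -1.36 ± 0.37, -1.02 ± 0.35 and -0.66 ± 0.26, and the corresponding differences in vehicle livers were -1.44 ± 0.37, -1.34 ± 0.35 and -1.06 ± 0.26.

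Igfbp5, an insulin-like growth factor binding protein gene, shows what 1 liver can do. It had 194, 758, 198, 371 and 440 normalized counts in Adamts12-/- CCl4 livers, against 17.9, 24.4, 61.7, 6829 and 28.4 in wild-type CCl4 livers. The 6829 was that of wild-type replicate 4, and the other 4 wild-type livers lay below every Adamts12-/- liver. With all livers the difference was 1.93 ± 1.09 (adjusted p = 0.977), and without wild-type replicate 4 it was 3.49 and the single gene called (adjusted p = 0.0101). In the same setting 1338 genes had an unadjusted p under 0.05. In vehicle livers the difference was -0.35 ± 1.09.

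Genes of inflammation had lower values in Adamts12-/- livers, and this rested largely on Adamts12-/- replicates 2 and 4. All 18 immediate early genes tested, transcription factors and regulators induced within minutes of a stimulus, had differences below 0, with a median of -0.76 beside -0.02 over all genes, and 3 were lower at an unadjusted p under 0.05, which 1.78% of all genes were. These were Ier5 (-0.44 ± 0.18), the AP-1 subunit gene Junb (-1.09 ± 0.50) and Klf4 (-1.13 ± 0.52). Junb had 2517, 410, 1784, 264 and 956 normalized counts in Adamts12-/- CCl4 livers and 4004, 2233, 787, 1584 and 1831 in wild-type CCl4 livers, so that the 2 lowest of the 10 livers were Adamts12-/- replicates 2 and 4. The mean level of the list relative to wild-type vehicle livers was 0.21 and 0.17 in these 2 livers, against 2.21 to 2.40 in the other 3 Adamts12-/- CCl4 livers and 1.53 to 2.78 in the wild-type CCl4 livers. Without the 2 livers the median difference was 0.05, with 12 of 18 genes above 0 and 0 at an unadjusted p under 0.05.

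Chemokines and cytokines followed the same livers. Of 22 tested, 21 had differences below 0, with a median of -0.75, and 3 were lower at an unadjusted p under 0.05: the chemokine genes Ccl5 (-1.10 ± 0.41) and Cxcl10 (-1.09 ± 0.51) and the interleukin gene Il1b (-1.23 ± 0.52). In vehicle livers 8 of the list were lower at this threshold, beside 688 of all 14289 genes, with a median of -0.68. Without Adamts12-/- replicates 2 and 4 the median in CCl4 livers was -0.12, with 9 of 22 above 0. Of 24 acute phase protein genes all had differences below 0, with a median of -0.45, and 0 had an unadjusted p under 0.05, among them Crp (-0.48 ± 0.28) and the fibrinogen chain gene Fgg (-0.46 ± 0.32). Their mean level was -1.18 and -2.72 in Adamts12-/- replicates 2 and 4, and without these 2 livers the median was 0.19. Over 24 alternatives the acute phase median reached -0.67 at its lowest, with 0 to 7 members lower and 0 to 1 higher at this threshold. Between 1.24% and 12.8% of all genes met it in either direction. In vehicle livers the median of the list was 0.23, with 0 members at this threshold.

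**Figure D5:**
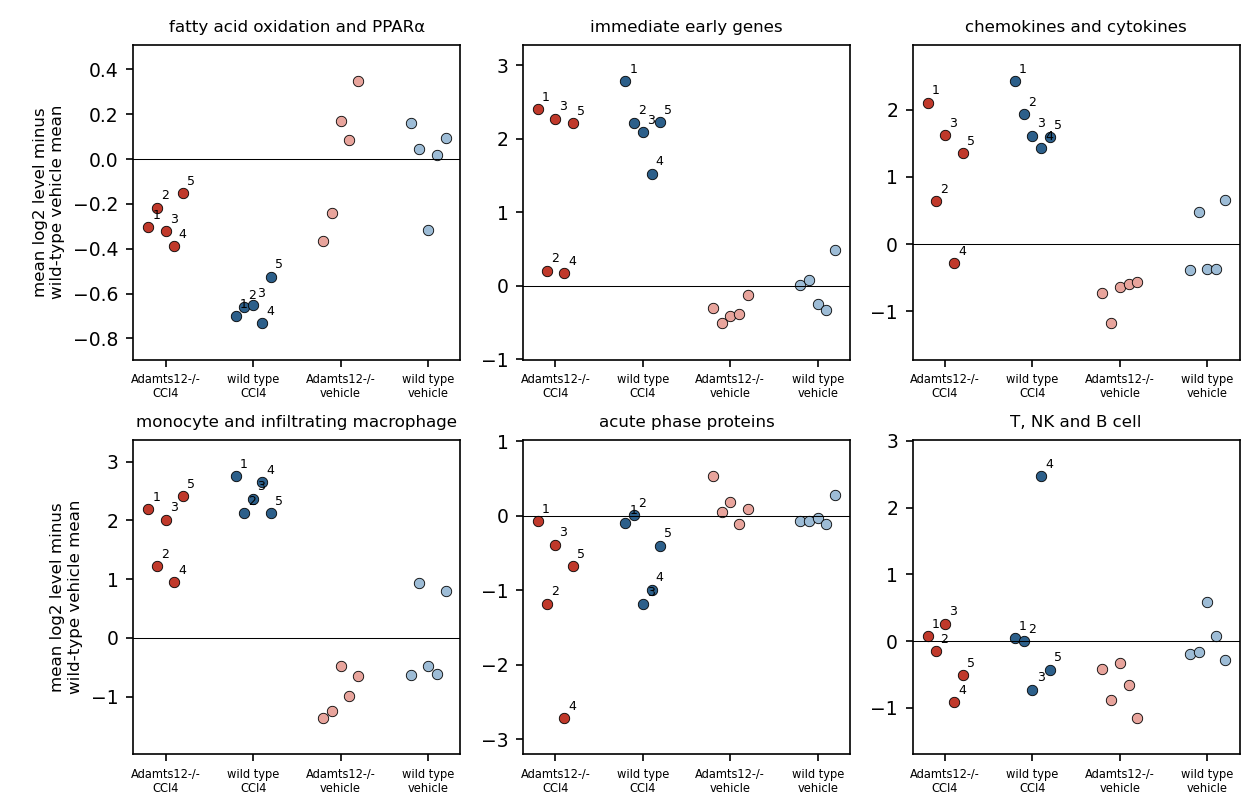
Mean log2 level of 6 gene lists in each of the 20 livers of 24 h, relative to the mean of the wild-type vehicle livers, with replicate numbers beside the CCl4 livers. For fatty acid oxidation every Adamts12-/- CCl4 liver lies above every wild-type CCl4 liver. For immediate early genes and chemokines Adamts12-/- CCl4 replicates 2 and 4 lie below the other CCl4 livers and within the range of the vehicle livers. For T, NK and B cell genes wild-type CCl4 replicate 4 lies far above the rest.

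Markers of immune cells moved with these livers too. In bulk tissue fewer cells of a type and less RNA per cell cannot be told apart. Of the 19 monocyte and infiltrating macrophage markers tested (of 20 listed), 18 had differences below 0, with a median of -0.60, and 4 were lower at an unadjusted p under 0.05: Ly6c2, a surface antigen of inflammatory monocytes, the lipid-binding protein gene Fabp5, the calcium-binding protein gene S100a6 and Plac8. Ly6c2 had 92.9, 52.9, 91.4, 35.2 and 66.7 normalized counts in Adamts12-/- CCl4 livers and 152, 215, 308, 141 and 84.7 in wild-type CCl4 livers, with an overlap of the highest and lowest values (-1.35 ± 0.34, adjusted p = 0.879). The summed level of the list was 11556 to 35400 in Adamts12-/- CCl4 livers and 30232 to 45008 in wild-type CCl4 livers. Without Adamts12-/- replicates 2 and 4 the median was -0.21, with 7 of the 19 above 0 and 1 lower at an unadjusted p under 0.05. In vehicle livers 9 of these markers were lower at this threshold, beside 688 of all 14289 genes, with a median of -0.93. Fabp5 differed there by 0.96 ± 0.44, opposite to its -1.04 ± 0.44 after CCl4 (unadjusted p = 0.00443 for the change, adjusted p = 1).

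After CCl4 the difference in lymphocyte markers depended on wild-type replicate 4. Of 17 T, NK and B cell genes tested, 2 were lower at an unadjusted p under 0.05, the granzyme gene Gzma (-1.29 ± 0.43) and the T cell receptor subunit gene Cd3d (-1.14 ± 0.51), and the median was -0.55. Their summed level was 428 to 797 in Adamts12-/- CCl4 livers and 482 to 6978 in wild-type CCl4 livers, and the mean log2 level was 2.47 in wild-type replicate 4 and -0.73 to 0.04 in the other wild-type livers. Without that liver the median was 0.05. In vehicle livers the median of these genes was -0.71, with 1 lower at this threshold, beside 688 of all 14289 genes. Their mean log2 level there was -1.155 to -0.333 in Adamts12-/- and -0.29 to 0.584 in wild-type livers, without overlap. For Kupffer cells, the resident macrophages, 0 of 14 markers had an unadjusted p under 0.05, with a median of -0.29, and Cd5l had the smallest p of them (-0.61 ± 0.30). Their mean log2 level was -0.655, -0.994, -1.18, -0.89 and -0.041 in Adamts12-/- CCl4 replicates 1 to 5, against -0.67 to -0.329 in wild-type CCl4 livers. Over 24 alternatives the Kupffer median lay between -0.53 and -0.12, with 0 to 4 lower and 0 to 1 higher at this threshold. In vehicle livers 9 were lower and 1 higher, beside 688 of all 14289 genes lower, with a median of -0.75. Of 10 neutrophil markers 0 had an unadjusted p under 0.05 after CCl4, with a median of -0.60. Their mean log2 level was -0.17 and -1.25 in Adamts12-/- replicates 2 and 4, against 0.99 to 2.16 in the other 3 Adamts12-/- CCl4 livers and 0.81 to 1.65 in the wild-type CCl4 livers. Without those 2 livers the neutrophil median was 0.45, with 10 of 10 markers above 0 and 0 at an unadjusted p under 0.05. Whether these markers account for other gene differences was not tested.

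Of 24 mitosis genes 3 were lower at an unadjusted p under 0.05, with a median of -0.40: Foxm1, the transcription factor that drives mitotic genes, the motor protein gene Kif11 (-0.71 ± 0.31) and the cyclin gene Ccnb1 (-1.07 ± 0.47). Foxm1 had 18.2, 13.2, 19.1, 12.8 and 24.1 normalized counts in Adamts12-/- CCl4 livers, against 30.2, 46.6, 38.3, 60.4 and 31.1 in wild-type CCl4 livers, without overlap (-1.18 ± 0.41, unadjusted p = 0.00922). All of these levels were low. Wild-type replicate 4 had a mitosis list level of 1.99, against 0.30 to 0.91 in the other wild-type CCl4 livers and 0.03 to 1.04 in the Adamts12-/- CCl4 livers. When it was left out, Foxm1 differed by -1.04 and 1 of 23 genes was lower at an unadjusted p under 0.05. That threshold was met by 9.40% of all genes in either direction. The median of the list was -0.13. With Adamts12-/- replicates 2 and 4 left out as well, it was -0.06, with 0 lower. Of 26 DNA replication genes 0 had an unadjusted p under 0.05, 20 were above 0 and the median was 0.22, with Mcm10, a factor of replication origin firing, at 0.78 ± 0.46. The median was 0.03 and Mcm10 differed by 0.03 without Adamts12-/- replicates 2 and 4. Whether the 2 lists differed from each other was not tested.

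Several liver metabolism genes had higher values in Adamts12-/- livers, in part through replicates 2 and 4. Cyp7b1, an oxysterol hydroxylase of the alternative bile acid pathway, had 100.6 to 369 normalized counts in Adamts12-/- CCl4 livers and 57.5 to 150 in wild-type CCl4 livers (1.08 ± 0.33, unadjusted p = 0.0035), and the organic anion transporter gene Slco1a1 had 157 to 672 in Adamts12-/- and 9.61 to 375 in wild-type livers (2.24 ± 0.76). These were the 2 of 20 bile acid genes at an unadjusted p under 0.05. The mean level of the bile acid list was -0.82 and -0.78 in Adamts12-/- replicates 2 and 4, against -2.69 to -1.37 in the other 3 Adamts12-/- CCl4 livers and -3.06 to -1.27 in the wild-type CCl4 livers. Without those 2 livers the median of the list was -0.15, against 0.20 with all livers, and Cyp7b1 differed by 0.55 and Slco1a1 by 2.00. Slco1a1 differed by 1.54 without wild-type replicate 4 and by 0.88 with sample quality weights. In the P450 list of 33 genes the 3 were Cyp4a14, Cyp4a10 and Cyp2d9 (1.26 ± 0.41), and without those 2 livers these 3 differed by 0.93, 0.93 and 1.49 while the median of the list was -0.07, against 0.14 with all livers. The glutathione transferase genes Gstm1, Gstm2 and Gstm3 (0.42 ± 0.18, 0.51 ± 0.24 and 0.90 ± 0.42) were the 3 of 22 NRF2 targets, a list whose median was -0.09. Without the 2 livers they differed by 0.26, 0.23 and 0.37, and the median was 0.21. Pklr, liver pyruvate kinase, was the 1 of 21 lipogenesis genes (0.71 ± 0.31), and Glul, glutamine synthetase of the innermost pericentral hepatocytes, the 1 of 20 pericentral markers (0.39 ± 0.19). The pericentral list had a median of 0.06, and neither the hepatocyte identity list, with a median of 0.14 and Foxa2 at 0.39 ± 0.20, nor the periportal list had a member at this threshold. Without the 2 livers Pklr differed by 0.11 and Foxa2 by 0.06, the hepatocyte identity median was -0.10, and the lipogenesis median was -0.26, against 0.00 with all livers. The lipogenesis level was 0.29 in wild-type replicate 4, against -0.93 to -0.34 in the other wild-type CCl4 livers. Over 24 alternatives the lipogenesis median reached 0.195. The bile acid median ranged from -0.15 to 0.49 over them, with 0 to 6 members higher and 0 to 1 lower at this threshold. For P450 genes it ranged from -0.07 to 0.33, with 1 to 6 higher and 0 to 3 lower. For hepatocyte identity it ranged from -0.10 to 0.34, with 0 to 3 higher and 0 to 1 lower. Between 1.24% and 12.8% of all genes met this threshold in either direction.

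The growth hormone and IGF list of 19 genes had members in both directions. Mup3, a major urinary protein gene, Cyp2d9 and Hsd3b5, a steroid dehydrogenase gene, were higher at an unadjusted p under 0.05, and the transcription factor genes Cux2 and Bcl6 and Socs3, an inhibitor of cytokine signalling, were lower. Mup3 had 24663, 43719, 33897, 36229 and 66210 normalized counts in Adamts12-/- CCl4 livers, against 24045, 26249, 26140, 15859 and 25367 in wild-type CCl4 livers (0.74 ± 0.24). Cux2, expressed mainly in female mouse liver, had 57.6 to 266 in Adamts12-/- and 234 to 508 in wild-type livers (-1.37 ± 0.47), while in vehicle livers it differed by 1.02 ± 0.47 (unadjusted p = 0.00192 for the change, adjusted p = 1). The remaining differences were 1.62 ± 0.67 for Hsd3b5, at 8.49 and 1.97 normalized counts on average in Adamts12-/- and wild-type livers, -1.08 ± 0.47 for Bcl6 and -1.31 ± 0.50 for Socs3. Without Adamts12-/- replicates 2 and 4 the differences were -0.69 for Cux2, -0.63 for Bcl6, -0.40 for Socs3 and 1.02 for Hsd3b5, and Mup3 differed by 0.72. Mup21, another urinary protein gene chosen after its values were seen, had 52.7 to 195 in Adamts12-/- and 17.0 to 44.3 in wild-type livers without overlap (1.48 ± 0.40).

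Of 26 extracellular matrix genes, 20 matrix metalloproteinases and inhibitors, and 7 hyalectans and reported ADAMTS12 partners, 0 had an unadjusted p under 0.05, with medians of 0.05, -0.18 and -0.02. Neither did any of 13 activated stellate cell and myofibroblast markers, with a median of -0.15, or of 15 quiescent stellate cell markers, with a median of 0.15. Wild-type replicate 4 stood above the rest of its group in the first 4 of these lists. Its extracellular matrix level was 1.67, against -0.47 to 0.33 in the other wild-type CCl4 livers. Its activated stellate cell level was 2.93, against 0.01 to 1.20. Its metalloproteinase level was 1.65, against 0.52 to 1.04, and its level of hyalectans and partners 1.76, against -0.03 to 0.86. Adamts12-/- CCl4 livers lay at 0.14 to 0.61 for extracellular matrix and 0.80 to 1.51 for activated stellate cells. They lay at 0.57 to 1.08 for metalloproteinases and 0.08 to 0.98 for hyalectans and partners. Over 24 alternatives the medians of these last 2 lists lay between -0.33 and 0.02 and between -0.43 and 0.10. Without wild-type replicate 4, 9.40% of all genes had an unadjusted p under 0.05 in either direction. In that setting the extracellular matrix median was 0.36, with 4 of 26 genes higher at this threshold and 21 above 0, and the activated stellate cell median was 0.46, with 1 of 13 higher and 9 above 0. Without Adamts12-/- replicates 2 and 4 as well, the medians were 0.24 and 0.38, with 0 members at this threshold. Of 15 other ADAMTS and related genes tested, Adamts13, the protease of von Willebrand factor, was the 1 at this threshold (0.52 ± 0.21), with 75.7 to 145 normalized counts in Adamts12-/- and 46.6 to 91.5 in wild-type CCl4 livers. Without wild-type replicate 4, 4 of the 15 were higher at this threshold, beside 9.40% of all genes in either direction. The median was then 0.28, against 0.04 with all livers. Tgfbi, an extracellular protein induced by TGF-β, was the 1 of 20 TGF-β genes (-0.31 ± 0.14). Sinusoidal endothelial markers had a median of 0.11, with Gata4 (0.42 ± 0.17) and Ehd3 (0.49 ± 0.23) higher. The median was -0.07, and the 2 genes differed by 0.10 and 0.15, without Adamts12-/- replicates 2 and 4. Of these 20 markers, 12 were lower at this threshold in Adamts12-/- vehicle livers, beside 688 of all 14289 genes, with a median of -0.56.

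Stress lists gave few members. Asns, asparagine synthetase, was the 1 of 27 genes of the integrated stress and unfolded protein responses at an unadjusted p under 0.05 (-1.21 ± 0.52), 24 of which were below 0 with a median of -0.24. Their mean level was 0.57 and 1.10 in Adamts12-/- replicates 2 and 4, against 1.43 to 2.63 in the other 3 Adamts12-/- CCl4 livers and 1.04 to 2.46 in the wild-type CCl4 livers. Without those 2 livers 13 of the 27 were above 0, the median was -0.0033 and Asns differed by -0.55. Without wild-type replicate 4 the median was -0.45. Hspa1a, an inducible heat shock protein gene, was the 1 of 18 heat shock genes (-0.96 ± 0.43), and it differed by -1.29 ± 0.43 in vehicle livers. The heat shock median was 0.01, and -0.19 without wild-type replicate 4, and Hspa1a differed by -0.50 without Adamts12-/- replicates 2 and 4. Of 25 interferon-stimulated genes 2 were lower, Ifi27l2a (-1.30 ± 0.55) and the transcription factor gene Irf1 (-0.37 ± 0.17). The median of this list was -0.18, and -0.31 without wild-type replicate 4, with 0 at the threshold. Proteasome and nuclear-encoded respiratory chain genes, 22 in each list, had 0 at this threshold, and their medians were 0.01 and -0.05. The same held for lists of p53 targets (21 genes, median -0.15), complement and coagulation (26, -0.05), MHC class II and antigen presentation (16, 0.13), G1 cyclins and growth signals (20, -0.12), cholesterol synthesis and uptake (22, 0.16) and the circadian clock (20, -0.03). It also held for markers of periportal hepatocytes (18, 0.09), cholangiocytes (9, -0.10) and erythroid cells and platelets (8, -0.44, and 0.12 without wild-type replicate 4). The periportal level was 0.03 in wild-type replicate 4, against -1.57 to -0.86 in the other wild-type CCl4 livers. The periportal median lay between -0.25 and 0.30 over 24 alternatives. The cholesterol median lay between -0.17 and 0.38 over them, with 0 to 3 members higher and 0 to 1 lower at this threshold. The MHC class II median lay between -0.02 and 0.33, with 0 to 5 higher and 0 lower. Between 1.24% and 12.8% of all genes met the threshold in either direction.

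Genes beside Adamts12 were examined because a knockout allele can carry flanking chromosome of another strain. Of 48 genes tested within 10 Mb of it, 0 were called and 2 were lower at an unadjusted p under 0.05 (4.17%, beside 3.21% over all genes). The noncoding transcript 4930556M19Rik, at chr15:10714836-10790123, had 24.1 to 99.7 normalized counts in Adamts12-/- CCl4 livers and 58.1 to 139 in wild-type CCl4 livers (-0.87 ± 0.29). Slc1a3, a glutamate transporter gene, had 6.40 to 16.9 in Adamts12-/- livers and 9.58 to 19.01 in 4 wild-type livers, with 129 in wild-type replicate 4 (-1.15 ± 0.52, and -0.53 without that liver, unadjusted p = 0.166). Their differences in vehicle livers were -0.69 ± 0.29 and -1.02 ± 0.52, and 8 of the 48 (16.7%) had an unadjusted p under 0.05 there, beside 6.96% over all genes in vehicle livers. The CCl4 count near Adamts12 depended on the livers: without wild-type replicate 4 it was 2 higher and 5 lower (14.6%, beside 9.40% over all genes), with 4930556M19Rik but not Slc1a3 among them. Without Adamts12-/- replicates 2 and 4 it was 0 higher and 3 lower (6.25%, beside 1.55% over all genes). Without all 3 livers it was 1 higher and 3 lower (8.33%, beside 1.67%). 4930556M19Rik was at this threshold in every alternative. It differed by -1.35 (adjusted p = 0.521) and -1.18 (adjusted p = 0.467) in the last 2 settings.

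The vehicle comparison shares no liver with the CCl4 comparison, and the differences of the 2 had a correlation of 0.262 across genes, which are not independent replicates. An unadjusted p under 0.05 in both was found for 64 genes, 13.9% of the 459 after CCl4 and 6.43% of the 995 with vehicle, and 61 of them differed in the same direction. The labels number 0 of the 5 Adamts12-/- vehicle mice, 4 of the 5 wild-type vehicle mice and 0 of the 10 CCl4 mice below 7000, so that in the vehicle comparison genotype and this numbering cannot be told apart for these 4 mice.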

How the data were processed

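Liver RNA was sequenced from stranded polyadenylated libraries, per the labels' protocols. The authors deposited a table of normalized counts, a signal with 1 value per gene and library, for 14560 genes and 80 libraries. STAR, HTSeq, DESeq2 and GRCm38 are named without versions in the submitters' processing notes, and the strand setting of the counting is not given in the sources used here. Deposited values are whole multiples of 1 step per library (within 0.01), from which depth was recovered.

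Differences were fitted with limma 3.58.1 in R 4.3.3 on log2(value + 1), with a trend, over the 20 livers of 24 h as 4 groups, with Benjamini-Hochberg adjustment over all genes tested. Genes needed at least 10 normalized counts in at least 5 livers, which removed 271. The log scale with a pseudocount of 1 understates changes of low genes. The deposited unit is normalized counts, so a count model was not the main test, and limma voom on recovered reads was run as an alternative. Gene positions are from GENCODE M21 (GRCm38). The rule for named genes, adjusted p under 0.05 with no overlap, was met by 0 genes. The text therefore names the 15 genes with the smallest p and members of 39 gene lists (737 of 793 genes tested), and genes picked after their values were seen are described as such. Gene lists and comparisons were chosen with earlier results of these data known. The analysis was tested on simulated data, with differences planted in genes with a mean of at least 100. Differences in low genes and shifts of whole livers were not simulated. Replicates are separate mice. 1 gene of the fatty acid oxidation list is counted in the list but not reported here.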

Additional observations from a re-analysis of the deposited data

Results flagged for a closer look

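Of 228 sets of 5 values examined (named genes, list levels and principal components in each CCl4 group), 18 held 1 liver far from the other 4, where chance gives about 1 in 20. Wild-type replicate 4 was the liver in 8 of the 18. It had 395.4 normalized counts of Eps8l1 against 12.77 to 29.07 in the other 4 wild-type CCl4 livers, 129.1 of Slc1a3 against 9.579 to 19.01, 6829 of Igfbp5 against 17.89 to 61.73, 255.4 of Napsa against 87.29 to 110.7, and 15860 of Mup3 against 24050 to 26250. Its second principal component was 97.2, its T, NK and B cell level 2.473 against -0.73 to 0.044, and its heat shock chaperone level 0.172 against 1.085 to 1.397.

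Wild-type replicate 3 was low in 3 genes, with 96040 normalized counts of Fgg against 252000 to 319600 in the other wild-type CCl4 livers, 5363 of Hadha against 7662 to 8643, and 17.03 of Mup21 against 39.13 to 44.31. Other wild-type values that stood apart were 6.708 of Gm13835 in replicate 1, 5153 of Acadl in replicate 2 and 2090 of Slc25a20 in replicate 5. Among Adamts12-/- CCl4 livers, replicate 1 had 9530 of Retsat against 6367 to 7002, and replicate 5 had 1327 of Acot1 against 433 to 598.4. Replicate 5 also had an erythroid and platelet level of 1.039 against -1.031 to -0.675 and a growth hormone and IGF axis level of -0.023 against -0.937 to -0.701.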

How the results depend on the processing

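No gene was called after CCl4 at 24 h except under 3 alternatives: 1 gene (Adamts12, adjusted p = 0.0144, difference -1.72) with a pseudocount of 8, 2 genes (Adamts12, adjusted p = 0.0365, and Gm28438, adjusted p = 0.0337) with all 80 livers in the fit, and 1 (Igfbp5) without wild-type replicate 4. Leaving out each CCl4 liver in turn gave 0 to 1 called genes and 205 to 1829 at an unadjusted p under 0.05, and -2.43 to -2.10 for Adamts12. That unadjusted count was 168 with the 10 CCl4 livers alone, 989 without the 12 h livers, 724 with all 80, 268 at a mean of at least 100, and 220 and 236 without Adamts12-/- replicates 2 and 4 and also without wild-type replicate 4. In vehicle livers sample quality weights gave 207 calls. With the replicate number as a block 0 genes were called and 536 had an unadjusted p under 0.05. Same-numbered CCl4 livers had correlations of -0.227 to 0.455. Adamts12-/- replicates 1 and 4 correlated best with the same number, and replicates 2, 3 and 5 with another. These values cannot decide whether the numbers pair the mice. Of 1725 values of the 73 named genes under alternatives, 11 took the opposite sign: Cd36 0.0069 with quality weights, -0.321 to 0.19 over the fits without 1 liver and 0.0781 without the 3 livers, Pdk4 -0.981 to 0.163 over the fits without 1 liver, 0.649 without Adamts12-/- replicates 2 and 4 and 0.569 without the 3 livers, and Ppara -0.142 and -0.0763 in those same settings. Their cause was not tested. The settings without several livers and the voom fit were chosen after seeing the data. A planned edgeR fit was not run.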
